A study of Bos taurus with 16 samples.

Results

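UPK1B, FOXO4, FBXO32, SLIT3, IGSF10 and ANXA8L1 are 6 genes whose group means stood far higher with bone morphogenetic protein 6 (BMP6) in cultured bovine theca interna cells, apart from the ID genes, the best known BMP targets. They were chosen for that rise, so their differences with BMP6 are described here and not tested. The array carries 8 probe sets whose annotated symbol is one of these genes, of 24016 probe sets tested, and the 6 genes are among 9155 that the annotation names. FBXO32 and SLIT3 have 2 probe sets each and the others 1.

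The cells were the steroid-producing layer of the follicle wall, isolated from abattoir ovaries of adult cattle as pools of about 50 follicles of 4 to 6 mm, and held for 6 days in serum-free primary culture. On days 3 to 6, 4 groups received no hormone (control), 160 pg/ml of luteinising hormone (LH), 10 ng/ml of BMP6, or both (LH+BMP6). RNA of each culture was read on the Affymetrix bovine GeneChip, with 4 arrays a group and 16 in all, from repeats of the experiment on different batches of ovaries. No group carried a genetic change. A pool of follicles mixes animals and can hold cells of the follicle wall other than theca cells.

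BMP6 is a secreted ligand of the TGF-beta superfamily, made within the follicle by the oocyte and granulosa cells, and it acts through paired serine/threonine kinase receptors that phosphorylate SMAD1, SMAD5 and SMAD8. In theca cells it is known for holding down androgen synthesis. The 6 genes belong to different families. SLIT3 is a secreted ligand of the ROBO guidance receptors, and IGSF10 is a large secreted protein of the immunoglobulin superfamily known for its part in the migration of gonadotropin-releasing hormone neurons. UPK1B is a tetraspanin of the cell surface that pairs with uroplakins of the UPK3 type in the plaques of the bladder lining, and ANXA8L1, whose RefSeq synonym is ANXA8, is an annexin, a protein that binds membrane phospholipids when calcium is present. FOXO4 is a forkhead transcription factor that insulin signalling keeps out of the nucleus through the kinase AKT, and FBXO32 (atrogin-1) is a substrate receptor of an SCF ubiquitin ligase and a well-known FOXO target in muscle.

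Values are log2 signals, so a difference of 1 is a doubling of signal, and a level may be compared between arrays for the same probe set but not between probe sets. The theca markers fixed for the check of the cell label were INSL3, CYP17A1, LHCGR, CYP11A1, STAR, HSD3B1 and NR5A1. In control these markers averaged from 7.38 for CYP17A1 to 14.08 for INSL3. Their mean over the list was 9.78 to 10.30 in control and 10.27 to 11.42 with LH, and 7.25 to 7.58 with BMP6 and 7.19 to 7.97 with LH+BMP6. In RNA from a whole culture, fewer cells of a type and less RNA per cell cannot be told apart. Control replicates 1 and 3 and LH replicate 1 had low hybridisation controls, at 8.66 to 8.71 against 9.84 to 10.17 on the 13 other arrays. The 3 prime minus 5 prime signal of actin, a sign of RNA quality, averaged 2.20 in control and 1.86 with BMP6 (exact permutation test, two-sided, p = 0.171), and 2.10 with LH and 1.72 with LH+BMP6 (p = 0.0571). That of GAPDH averaged 0.34 in control and 0.23 with BMP6 (exact permutation p = 0.0286, the lower bound of a test with 4 arrays a group). Over the 24 tests of this family, Benjamini-Hochberg adjustment raises that bound to 0.0762, which is also the value of the theca list mean although its groups did not overlap. An adjusted p above 0.05 therefore says nothing here about whether these measures differed. Their part in the differences below was not tested.

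SLIT3, the ROBO ligand, read 6.05, 6.11, 7.30 and 7.23 in control replicates 1 to 4 and 6.27, 6.90, 7.00 and 6.90 with LH. With BMP6 it read 7.99, 8.35, 9.51 and 9.12, and with LH+BMP6 8.37, 8.77, 9.07 and 9.48. Every array with BMP6 lay above every array without it, although the arrays within a group were spread widely. The difference was 2.07 ± 0.34 (SE, n = 4 arrays a group) for BMP6 against control, a 4.20-fold higher signal. For LH+BMP6 against LH it was 2.16 ± 0.34, or 4.45-fold. Within replicate numbers these differences ran from 1.89 to 2.24 and from 1.88 to 2.58. The second SLIT3 probe set gave smaller differences of 1.68 ± 0.30 and 1.81 ± 0.30, from 5.00 to 5.97 in control to 6.46 to 7.82 with BMP6. It ordered the arrays in much the same way: after removal of the group means, the deviations of the 2 probe sets correlated at r = 0.971 over the 16 arrays.

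IGSF10, the other secreted protein, read 3.55, 4.14, 4.37 and 4.27 in control and 3.91, 3.75, 4.53 and 4.08 with LH. With BMP6 it read 6.19, 4.58, 6.91 and 6.84, and with LH+BMP6 6.14, 5.94, 6.63 and 6.97. BMP6 replicate 2 stood far below the rest of its group and only 0.044 above the brightest array without BMP6, so the spread of this group (SD 1.08) was the widest of any gene here. The difference was 2.05 ± 0.39 for BMP6 against control, or 4.13-fold, and 2.35 ± 0.39, or 5.11-fold, for LH+BMP6 against LH. Without BMP6 replicate 2 the first of these was 2.56. The levels without BMP6 lay around the lower quartile of all probe sets on an array (4.31 to 4.43). No detection limit was estimated, so the folds may be lower bounds.

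UPK1B, the tetraspanin, read 5.06, 5.25, 5.39 and 5.49 in control and 4.66, 5.07, 4.53 and 4.80 with LH. With BMP6 it read 8.50, 7.49, 7.83 and 7.80, and with LH+BMP6 8.50, 7.36, 7.81 and 7.78. The gap between the dimmest array with BMP6 and the brightest without was 1.87, the widest of the 6 genes. The difference was 2.61 ± 0.22 for BMP6 against control, or 6.11-fold, and 3.10 ± 0.22, or 8.57-fold, for LH+BMP6 against LH. Both groups with BMP6 had the same order of replicates, with replicate 1 highest and replicate 2 lowest.

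ANXA8L1, the annexin, read 5.87, 6.75, 7.25 and 6.51 in control and 4.87, 5.95, 6.05 and 5.97 with LH. With BMP6 it read 8.03, 8.46, 7.51 and 7.66, and with LH+BMP6 8.08, 8.26, 8.28 and 7.23. It was the exception among the 6 genes, because LH+BMP6 replicate 4 lay 0.018 below control replicate 3. Within each comparison the groups did not overlap. The difference was 1.32 ± 0.31 for BMP6 against control, or 2.49-fold, and 2.25 ± 0.31, or 4.77-fold, for LH+BMP6 against LH. The differences within replicate numbers ran from 0.25 to 2.17 in the first and from 1.26 to 3.21 in the second.

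FOXO4, the forkhead factor, read 5.69, 6.10, 6.10 and 5.86 in control and 6.23, 6.73, 6.16 and 6.47 with LH. With BMP6 it read 8.07, 8.38, 8.62 and 8.49, and with LH+BMP6 8.39, 9.09, 8.55 and 9.02. The arrays of a group lay close together, with an SD of 0.20 to 0.35, and the gap between arrays with and without BMP6 was 1.34. The difference was 2.45 ± 0.17 for BMP6 against control, or 5.47-fold, and 2.37 ± 0.17, or 5.16-fold, for LH+BMP6 against LH. Within replicate numbers it ran from 2.28 to 2.62 and from 2.16 to 2.55.

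FBXO32, the ubiquitin ligase subunit, read 6.75, 7.33, 7.53 and 7.07 in control and 6.17, 6.34, 7.72 and 7.24 with LH. With BMP6 it read 8.87, 9.04, 9.15 and 9.64, and with LH+BMP6 8.95, 9.40, 9.65 and 9.40. The LH group was the most spread, with replicates 1 and 2 low and replicate 3 above every control array. The difference was 2.01 ± 0.28 for BMP6 against control, or 4.02-fold, and 2.48 ± 0.28, or 5.59-fold, for LH+BMP6 against LH. The second FBXO32 probe set gave 1.95 ± 0.24 and 2.29 ± 0.24, and the deviations of both probe sets from their group means correlated at r = 0.964 over the 16 arrays.

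**Figure D1:**
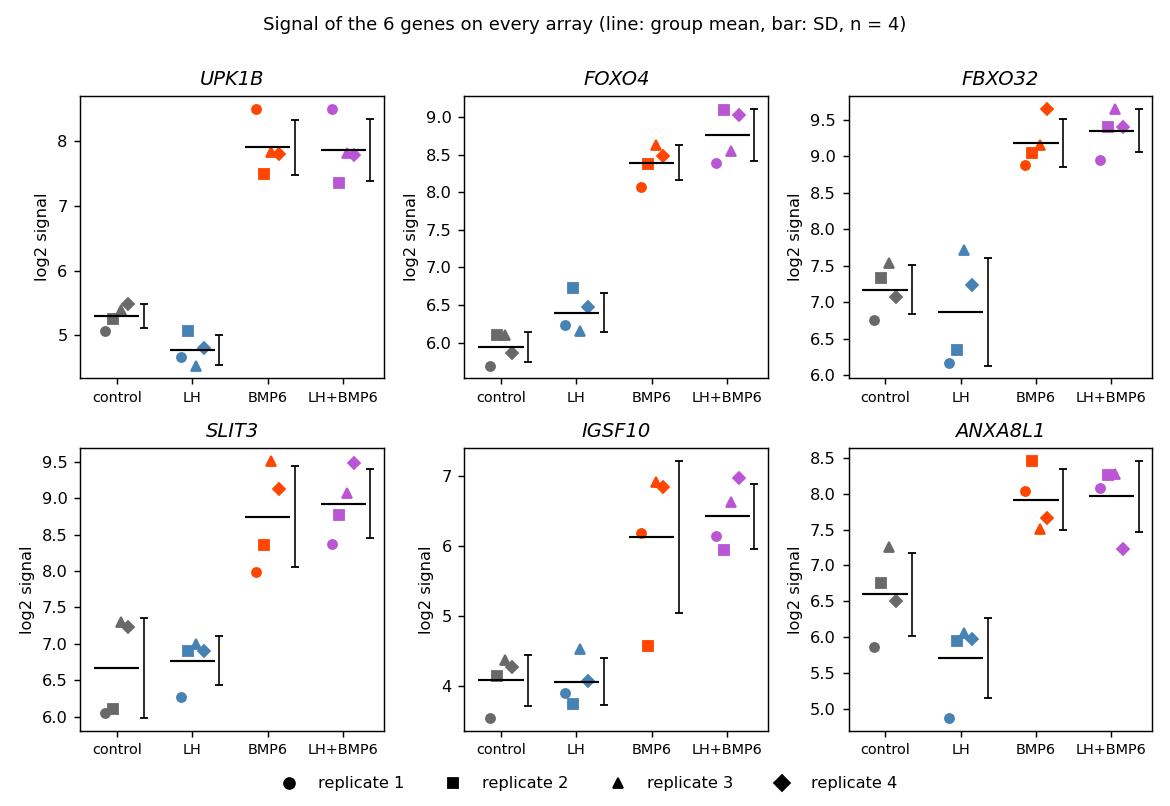
The log2 signal of the brighter probe set of each gene (vertical axis) in the 4 groups (horizontal axis), with a symbol for each replicate number, a line at the group mean and a bar for the SD of 4 arrays. The arrays with BMP6 stand above those without it in all panels except that of ANXA8L1, where 1 array of each kind meets at 7.23 and 7.25, and IGSF10 has a low BMP6 replicate 2 at 4.58.

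For 5 of the 6 genes, and 7 of the 8 probe sets, all 8 arrays with BMP6 lay above all 8 without. Over the whole array 4.75% of probe sets had that order. Nothing is read from this share, because the genes were chosen on these means. Ranked by the mean of both BMP6 differences among the 9155 named genes, UPK1B was 1st at 2.85 and ANXA8L1 was 23rd, and FOXO4, FBXO32, IGSF10 and SLIT3 held ranks 6, 7, 8 and 10. The other genes of the first 12 were ID1, BOLA-DYA, NOS2, LOC508098, RSPO3, PTGS2 and PFKFB3, with mean differences from 2.76 for ID1 to 2.09 for PFKFB3. No threshold separated the 6 genes from these. BMP6 against control and LH+BMP6 against LH use different arrays, but the genes were chosen on the means of all 4 groups. Neither comparison is therefore a check on the other. The differences of the 6 genes were 1.32 to 2.61 in the first and 2.16 to 3.10 in the second.

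**Figure D2:**
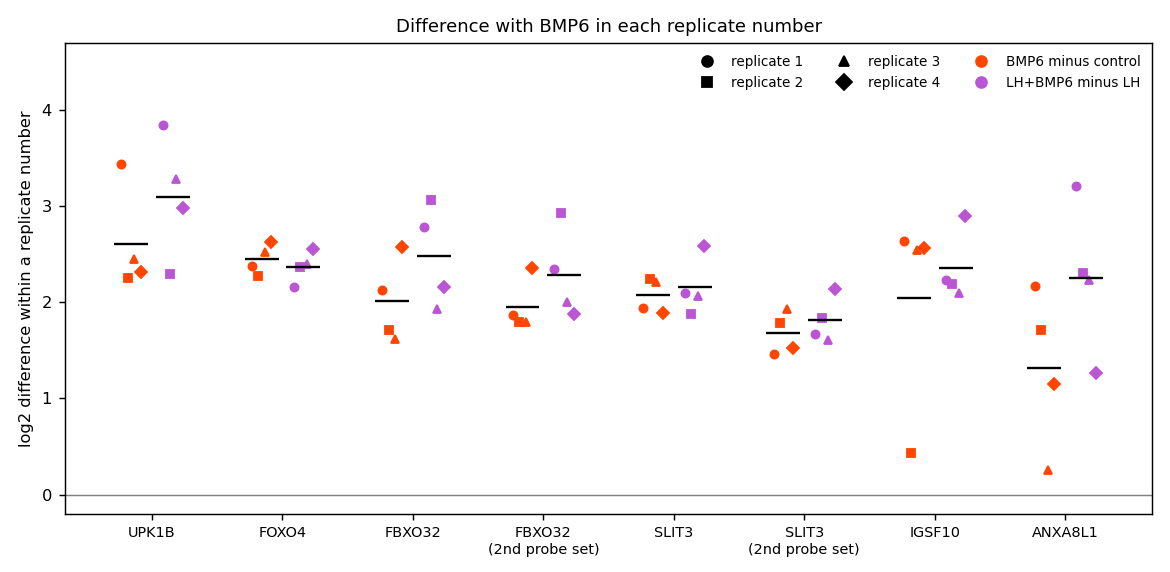
The log2 difference with BMP6 within each replicate number (vertical axis) for the 8 probe sets, without LH (BMP6 minus control) and with LH (LH+BMP6 minus LH), with a line at the difference of the group means. All 64 points lie above 0, and the lowest are ANXA8L1 in replicate 3 at 0.25 and IGSF10 in replicate 2 at 0.44, both without LH.

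LH was the treatment that did not choose these genes, and none of the 6 was called for it by limma (adjusted p under 0.05 over all 24016 probe sets). Averaged over cultures with and without BMP6, 0 of 6 genes passed, where 0.00416% of all probe sets did and 3.96% had an unadjusted p under 0.05. FOXO4 had the largest such difference relative to its error, 0.42 ± 0.12 higher with LH (95% interval 0.17 to 0.67, unadjusted p = 0.00269, limma adjusted p = 0.999). Its values were higher with LH in 4 of 4 replicate numbers without BMP6 and in 3 of 4 with it. The 95% intervals of the other genes included 0. They ran from -0.61 to 0.04 for UPK1B, from -0.88 to 0.05 for ANXA8L1, and from -0.48 to 0.35 for FBXO32. For SLIT3 the interval was -0.37 to 0.65 and for IGSF10 -0.44 to 0.71, so a moderate change of these genes with LH in either direction could not be told from none.

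LH against control shares its control arrays with BMP6 against control, and again 0 of 6 genes passed, with 0.0125% of all probe sets called and 5.38% at an unadjusted p under 0.05. ANXA8L1 was 0.88 ± 0.31 lower with LH (95% interval -1.54 to -0.22, limma adjusted p = 0.779) and UPK1B 0.53 ± 0.22 lower (-0.99 to -0.07, limma adjusted p = 0.907), each in 4 of 4 replicate numbers. Without the 3 arrays of low hybridisation controls, among them the lowest ANXA8L1 array of the LH group, these differences were -0.64 and -0.57. FOXO4 was the only one of the 6 whose LH and control arrays did not overlap, by 0.056, and it was 0.46 ± 0.17 higher (limma adjusted p = 0.809). Overlap was not counted over all probe sets for this comparison or the next, so nothing is read from it. With BMP6 present, LH+BMP6 and BMP6 arrays overlapped for every one of the 6 genes. The differences ran from -0.04 ± 0.22 for UPK1B to 0.37 ± 0.17 for FOXO4 (95% interval 0.02 to 0.73, limma adjusted p = 1.00), and 0 of 6 passed, as did 0 of all 24016 probe sets (1.96% at an unadjusted p under 0.05).

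The interaction compares the BMP6 difference with LH to that without it, and it uses the arrays on which the genes were chosen. No probe set of 24016 was called for it by limma, and 3.22% had an unadjusted p under 0.05. ANXA8L1 had the largest estimate, 0.93 ± 0.44 (95% interval 0.00068 to 1.87, unadjusted p = 0.0499, limma adjusted p = 1.00), as its level without BMP6 was lower with LH while its levels with BMP6 were 7.91 and 7.96. Without the 3 arrays of low hybridisation controls the ANXA8L1 estimate was 0.69. UPK1B (0.49 ± 0.31), FBXO32 (0.48 ± 0.39) and IGSF10 (0.31 ± 0.55) had intervals that included 0, as did SLIT3 (0.08 ± 0.48) and FOXO4 (-0.08 ± 0.24). In order of group means, the 2 groups without BMP6 came first for each gene. The order within each pair of groups, with or without BMP6, was not resolved by the test for any of them.

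**Figure D3:**
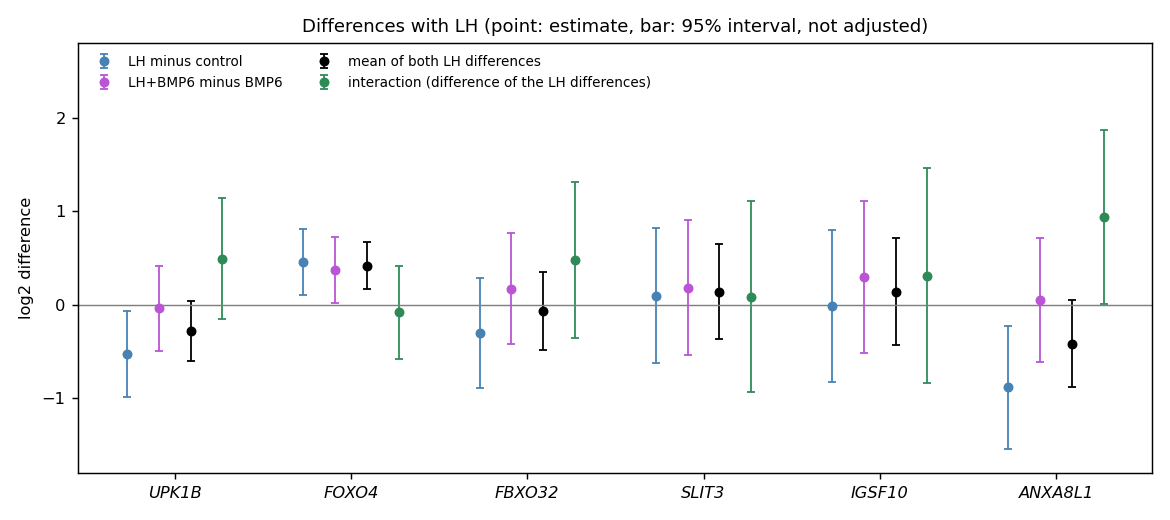
The log2 difference with LH (vertical axis) for the 6 genes, without BMP6, with BMP6, as the mean of both, and as the interaction; points are limma estimates and bars their 95% intervals, which are not adjusted for the number of probe sets. On this unadjusted scale 0 lies outside the intervals of the FOXO4 differences of 0.46, 0.37 and 0.42 and of the ANXA8L1 interaction of 0.93. It also lies outside those of the UPK1B and ANXA8L1 differences of -0.53 and -0.88 without BMP6. The interval of the interaction starts at 0.00068 and that of the FOXO4 difference of 0.37 at 0.02, both close to 0. None of these differences was called after adjustment.

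The genes differed in how far their arrays followed the replicate number. The replicate number took up 81.8% of the within-group sum of squares of SLIT3, and 81.9% for its second probe set, where the median over all probe sets was 31.5% and the upper quartile 47.2%. Replicate 1 of SLIT3 was below its group mean in 4 of 4 groups, and replicates 3 and 4 were above in 4 of 4. IGSF10 at 57.0% had the same replicates 3 and 4 above their mean in 4 of 4 groups, and FBXO32 (62.3%) and FOXO4 (59.5%) had replicate 1 below in 4 of 4. ANXA8L1 (37.1%) and UPK1B (22.3%) lay nearer the median. For UPK1B replicate 1 was below its mean in both groups without BMP6 and above it in both groups with BMP6. The labels speak of repeats on different batches of ovaries but do not state which arrays share a batch.

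**Figure D4:**
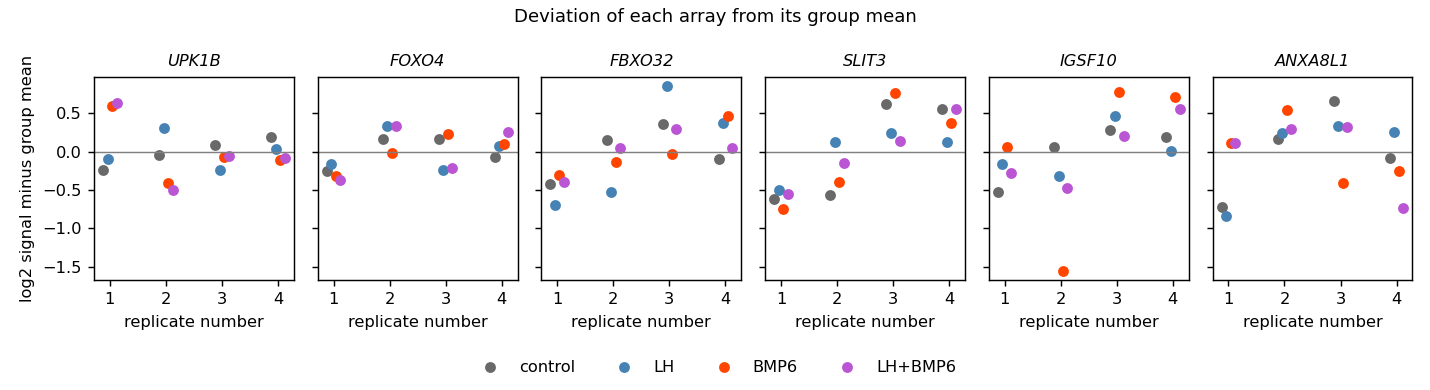
The deviation of each array from its group mean in log2 signal (vertical axis) by replicate number (horizontal axis), coloured by group, for the 6 genes. SLIT3 moves from below 0 in replicate 1 to above 0 in replicates 3 and 4 in all 4 groups, whereas UPK1B has replicate 1 high only in the groups with BMP6.

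For each gene, the named genes with the most similar pattern were found by Pearson correlation of the log2 signals over the 16 arrays. Most of such a value reflects the shared step with BMP6, so the correlations within the 8 arrays without BMP6 and within the 8 with it are given beside it, in that order, as a description. UPK1B was most like ID1 (r = 0.977; 0.277 and 0.801), followed by RSPO3 (0.967; 0.461 and 0.328) and the annexin ANXA1 (0.965; 0.856 and 0.901). FOXO4 was most like SCPEP1, a serine carboxypeptidase (0.982; 0.476 and 0.962), MTURN (0.971; 0.296 and 0.655) and LOC514170 (0.964; 0.288 and 0.688). FBXO32 was most like LDLRAD4 (0.979; 0.869 and 0.963), a membrane protein known to restrain TGF-beta signalling, CAPG (0.977; 0.826 and 0.742) and MRC2 (0.975; 0.935 and 0.682).

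SLIT3 was most like CLDND1 (0.969; 0.834 and 0.814), LTBP1, which tethers latent TGF-beta to the matrix (0.966; 0.909 and 0.719), and WSB1 (0.965; 0.875 and 0.796). IGSF10 was most like CTTN, the actin regulator cortactin (0.984; 0.859 and 0.948), and the matrix protein genes CCDC80 (0.983; 0.872 and 0.985) and MXRA8 (0.982; 0.879 and 0.978). BMP6 replicate 2, low for IGSF10, weighs on the values with BMP6. ANXA8L1 was most like IL17RC (0.967; 0.937 and 0.863), TFPI2 (0.963; 0.870 and 0.850) and CLIC1 (0.957; 0.873 and 0.736).

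When the group means were removed and the deviations compared, other genes came first except for IGSF10. CTTN led again for IGSF10 (0.952), with FAM200C (0.930) and CCDC80 (0.928). ANXA8L1 deviated most like MAP1LC3C (0.945), RRM2 (0.921) and BUB1 (0.915), of which RRM2 and BUB1 are genes of DNA synthesis and the mitotic checkpoint. SLIT3 was followed by the chemokine CCL8 (0.927), the growth factor IGF2 (0.904) and CRABP2 (0.898), UPK1B by KLHL2 (0.938), KCNMB1 (0.904) and PPP2CB (0.901), FBXO32 by RBMX (0.901), GPRC5C (0.901) and GALNT14 (0.881), and FOXO4 by GNB5 (0.882), ZGPAT (0.825) and DCAF15 (0.818). These deviations share replicate numbers and carry 12 residual degrees of freedom, and the leading genes were picked from 9155.

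Genes of the families and pathways around the 6 were read from lists, and each list is given by its counts beside those of all named genes. In BMP6 against control limma called 18.1% of all probe sets (8.12% higher and 9.95% lower), with 9.31% of named genes higher and 15.5% lower and a median difference of -0.017. In LH+BMP6 against LH it called 20.3% of probe sets (9.99% higher and 10.3% lower), with 11.7% of named genes higher and 15.5% lower and a median of -0.032. Genes are named mainly where they kept their call under all alternative settings of the analysis, which were 32, or 31 for ANXA13 and FBXO15, which the filter on dim probe sets removed.

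Around SLIT3, 23 genes of the SLIT-ROBO pathway were measured, of which limma called 3 higher and 1 lower in BMP6 against control and 6 higher and 0 lower in LH+BMP6 against LH, with medians of 0.018 and 0.022. The receptors were not among them: ROBO1 differed by -0.04 ± 0.09 (limma adjusted p = 0.818) and -0.27 ± 0.09 (0.051), ROBO2 by -0.35 ± 0.24 and -0.53 ± 0.24, and ROBO4 by -0.17 ± 0.20 and -0.43 ± 0.20. SLIT2, the other ligand measured, differed by -0.09 ± 0.20 and 0.00 ± 0.20. The genes that rose under all settings were CDH2, which encodes N-cadherin (1.67 ± 0.27, limma adjusted p = 0.000322, and 1.77 ± 0.27, adjusted p = 0.000169), and the heparan sulfate proteoglycan SDC3 (0.97 ± 0.18, adjusted p = 0.00122, and 1.25 ± 0.18, adjusted p = 0.000127). NCK2, an adaptor protein, also rose in both (0.42 ± 0.12 and 0.51 ± 0.12). Its call without LH was lost when control replicate 1, control replicate 2, BMP6 replicate 2 or BMP6 replicate 4 was left out. Over all settings the limma adjusted p of that difference reached 0.218. The single lower call, EVL at -0.25 ± 0.07 without LH, was lost when any of control replicates 1, 3 and 4 or BMP6 replicates 1, 2 and 4 was left out. In LH+BMP6 against LH the count of lower genes became 2 without LH replicate 2, and 1 without BMP6 replicate 2, BMP6 replicate 3 or LH+BMP6 replicate 1.

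Around IGSF10, 19 genes of immunoglobulin-superfamily matrix and adhesion proteins were measured. Limma called 5 higher and 1 lower in BMP6 against control and 8 higher and 3 lower in LH+BMP6 against LH, with medians of 0.215 and 0.147. The vascular adhesion molecule VCAM1 was the gene that rose under all settings in both (0.78 ± 0.17, limma adjusted p = 0.00395, and 0.91 ± 0.17, adjusted p = 0.00112). The neural adhesion molecule NCAM1 (0.99 ± 0.27 and 1.16 ± 0.27) and the junctional proteins JAM2 (0.49 ± 0.14 and 0.65 ± 0.14) and JAM3 (0.48 ± 0.12 and 0.50 ± 0.12) rose in both under the main setting. IGSF11 fell in both (-0.61 ± 0.14 and -0.50 ± 0.14). Without LH, NCAM1 lost its call without control replicate 1, and JAM2 without control replicate 1, control replicate 2 or BMP6 replicate 4. With LH, IGSF11 lost it without LH replicate 1 or LH+BMP6 replicate 2 (limma adjusted p up to 0.0624 over all settings). The count of 5 was 3 without control replicate 1 or control replicate 2. The count of 3 lower genes was 0 without LH replicate 1 or LH+BMP6 replicate 2, and 1 without LH+BMP6 replicate 3.

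Markers of pericytes, smooth muscle and fibroblasts, which make matrix proteins, were read beside the secreted genes. Of 10 measured, limma called 5 higher and 0 lower in BMP6 against control and 5 higher and 1 lower in LH+BMP6 against LH, with the matrix proteoglycan gene DCN at 0.73 ± 0.16 and 0.74 ± 0.16 and DES, which encodes desmin, at 0.76 ± 0.15 and 0.87 ± 0.15. The lower gene was RGS5 (-0.84 ± 0.29, limma adjusted p = 0.0469), which lost its call under 13 of 32 settings. Without LH its mean was 6.11 in control and 5.61 with BMP6. MYH11, which was not called, averaged 10.36 in control and 10.14 with BMP6, and 10.13 with LH and 10.06 with LH+BMP6. The list mean was 9.29 to 9.70 in control and 9.62 to 10.03 with BMP6 (exact permutation test, two-sided, p = 0.0857, adjusted p = 0.147), and 9.31 to 9.80 with LH and 9.65 to 9.97 with LH+BMP6 (p = 0.0571, adjusted p = 0.114). Among arrays with BMP6, replicate 2 had the lowest list mean in both groups, as it had the lowest IGSF10. SLIT3 was instead lowest in replicate 1 of both groups, where the list mean was 9.97 with BMP6 and 9.94 with LH+BMP6. What part these markers had in the SLIT3 and IGSF10 differences was not tested.

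Around UPK1B, 25 uroplakins and other tetraspanins were measured, and limma called 4 higher and 4 lower in BMP6 against control and 6 higher and 5 lower in LH+BMP6 against LH, with medians of 0.033 and 0.016. UPK2, a uroplakin that is no tetraspanin, rose by 1.06 ± 0.11 (limma adjusted p = 3.68e-06) and 0.64 ± 0.11 (adjusted p = 0.00039), while UPK1A (0.03 ± 0.09 and -0.03 ± 0.09) and UPK3B (0.07 ± 0.11 and 0.08 ± 0.11) were not called. TSPAN7 (1.39 ± 0.22 and 1.14 ± 0.22) and CD9 (0.78 ± 0.10 and 0.98 ± 0.10) rose in both. TSPAN33 fell the most, from 7.52 in control to 5.21 with BMP6 (-2.31 ± 0.10, limma adjusted p = 6.35e-10) and from 7.28 with LH to 5.20 with LH+BMP6 (-2.08 ± 0.10, adjusted p = 2.23e-09). CD151 (-0.75 ± 0.10 and -0.76 ± 0.10) and TSPAN4 (-0.66 ± 0.12 and -0.90 ± 0.12) fell as well. Each of these called genes kept its call under all 32 settings.

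UPK1B is also a gene of the mesothelium and of the bladder lining, so markers of both were read. Of 10 mesothelial and ovarian surface epithelial markers measured, 0 were higher and 1 lower in each comparison, the lower one being KRT18 (-1.30 ± 0.28 and -1.18 ± 0.28). Of the markers not called, the group means of MSLN were 4.10 to 4.25, those of UPK3B 5.07 to 5.17, of KRT7 4.86 to 4.98, of KRT8 4.22 to 4.33 and of KRT19 3.85 to 4.11. The group means of CDH1 were 6.31 to 6.84 and those of PDPN 10.41 to 10.91, with PDPN at 0.38 ± 0.21 (limma adjusted p = 0.238) and 0.10 ± 0.21. EPCAM (-0.33 ± 0.13 and -0.36 ± 0.13) and LGALS2 (0.02 ± 0.10 and 0.01 ± 0.10) were not called either. The list mean was 5.51 to 5.69 in control and 5.35 to 5.79 with BMP6 (exact permutation test, two-sided, p = 0.4), and 5.46 to 5.74 with LH and 5.46 to 5.73 with LH+BMP6 (p = 0.371). Its part in the UPK1B difference was not tested. Of 4 urothelial markers measured, 1 was higher in BMP6 against control, UPK2 itself, and 2 in LH+BMP6 against LH, UPK2 and KRT5. KRT5 (0.42 ± 0.15, limma adjusted p = 0.0492) lost its call under 19 of 32 settings, among them the omission of any LH array. The mean of that list was 4.95 to 5.16 in control and 5.37 to 5.48 with BMP6, and 5.12 to 5.36 with LH and 5.38 to 5.49 with LH+BMP6 (exact permutation p = 0.0286 and adjusted p = 0.0762 in each).

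Around ANXA8L1, 22 annexins and S100 proteins, the calcium-binding partners of annexins, were measured. Limma called 10 higher and 0 lower in BMP6 against control and 11 higher and 0 lower in LH+BMP6 against LH, with medians of 0.202 and 0.383, and 9 were higher in both. ANXA1 (0.38 ± 0.06, limma adjusted p = 0.000464, and 0.59 ± 0.06, adjusted p = 7.9e-06), ANXA2 (0.44 ± 0.07 and 0.45 ± 0.07), ANXA13 (0.56 ± 0.11 and 0.76 ± 0.11) and S100A8 (0.70 ± 0.14 and 0.89 ± 0.14) rose under all settings. S100B also rose under all settings in BMP6 against control (0.99 ± 0.21), but it was not called in LH+BMP6 against LH. S100A10, which binds ANXA2, rose by 0.43 ± 0.13 in each, and S100A12 by 0.78 ± 0.21 and 1.08 ± 0.21. S100A10 lost its call without LH when control replicate 1, control replicate 4 or BMP6 replicate 1 was left out, and with LH without LH replicate 1, LH replicate 4, LH+BMP6 replicate 1 or LH+BMP6 replicate 3. S100A12 lost it without control replicate 1 or BMP6 replicate 3. The count of 10 was 6 when the 3 arrays of low hybridisation controls were left out.

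S100A8 and S100A12 are abundant in myeloid cells, so leukocyte markers were read beside this group. Of 8 measured, limma called 2 higher (CD14 and BOLA-DRA) in BMP6 against control and 6 in LH+BMP6 against LH (those and PTPRC, CD3E, CD68 and CD2), with 0 lower in either. The myeloid markers CSF1R (0.03 ± 0.13 and -0.01 ± 0.13) and AIF1 (-0.07 ± 0.12 and 0.13 ± 0.12) were called in neither, and CD68 differed by 0.20 ± 0.14 (limma adjusted p = 0.373) and 0.46 ± 0.14. CD14, a monocyte receptor, differed by 1.13 ± 0.24 and 1.04 ± 0.24, and PTPRC, the pan-leukocyte antigen CD45, by 0.72 ± 0.26 (limma adjusted p = 0.0695) and 0.95 ± 0.26 (adjusted p = 0.0161). PTPRC lost the latter call without LH+BMP6 replicate 2. It also lost that call without the 3 arrays of low hybridisation controls, where it was 0.60 higher. BOLA-DRA lost its call in BMP6 against control under 13 of 32 settings, among them the omission of any BMP6 array. The list mean was 7.61 to 7.72 in control and 7.78 to 8.35 with BMP6, and 7.11 to 7.75 with LH and 8.10 to 8.39 with LH+BMP6 (exact permutation test, two-sided, p = 0.0286 and adjusted p = 0.0762 in each). Its part in the annexin and S100 differences was not tested.

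Around FOXO4, the annotation named no other FOXO gene of the family list of 4. Of 15 regulators upstream of FOXO proteins, limma called 1 higher and 2 lower in each comparison, with medians of 0.085 and 0.072. The insulin receptor gene INSR fell from 8.13 in control to 6.89 with BMP6 (-1.24 ± 0.22, limma adjusted p = 0.000873) and from 8.24 with LH to 7.12 with LH+BMP6 (-1.12 ± 0.22, adjusted p = 0.00175). It was lower under all settings, but the mean of its probe sets gave only -0.54 and -0.53. PIK3R1, the regulatory subunit of the lipid kinase below that receptor, fell as well (-0.54 ± 0.15 and -0.71 ± 0.15). The higher gene was SGK1 (0.52 ± 0.16) without LH and AKT1 (0.32 ± 0.09) with it, both kinases that phosphorylate FOXO proteins. In BMP6 against control the lower count was 1 without control replicate 1, control replicate 2, BMP6 replicate 3 or BMP6 replicate 4. The higher count was 0 without control replicate 1, control replicate 2 or BMP6 replicate 4, and 2 without control replicate 3 or LH+BMP6 replicate 2. In LH+BMP6 against LH the higher count was 0 without LH replicate 1 or LH+BMP6 replicate 2.

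Genes known as FOXO targets in other tissues went both ways. Of 25 measured, without FBXO32, limma called 5 higher and 4 lower in BMP6 against control and 4 higher and 3 lower in LH+BMP6 against LH, with medians of 0.223 and 0.131. The mitophagy receptor gene BNIP3 (1.53 ± 0.26, limma adjusted p = 0.000508, and 1.25 ± 0.26, adjusted p = 0.0022), the autophagy gene GABARAPL1 (0.74 ± 0.09 and 0.84 ± 0.09) and PIK3IP1, an inhibitor of phosphoinositide 3-kinase (0.73 ± 0.13 and 0.66 ± 0.13), rose under all settings. KLF15, a transcription factor (-0.95 ± 0.14 and -1.16 ± 0.14), the stress gene GADD45B (-0.92 ± 0.19 and -0.90 ± 0.19) and the mitochondrial peroxidase gene PRDX3 (-0.80 ± 0.09 and -0.99 ± 0.09) fell under all settings. The size for PRDX3 rested on the probe set, and the mean of its probe sets gave -0.33 in each comparison. SOD2, a mitochondrial superoxide dismutase, rose by 0.41 ± 0.11 and 0.38 ± 0.11, and lost the second call without LH replicate 4, LH+BMP6 replicate 2 or LH+BMP6 replicate 3. The count of 4 higher genes with LH was 7 without LH replicate 2.

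Around FBXO32, 25 other F-box proteins and SCF ligase subunits were measured, and limma called 0 higher and 3 lower in BMP6 against control and 0 higher and 5 lower in LH+BMP6 against LH, with medians of -0.074 and -0.056. FBXO15 fell under all settings (-0.61 ± 0.12, limma adjusted p = 0.00126, and -0.54 ± 0.12, adjusted p = 0.00301, or -0.35 by the mean of its probe sets), and FBXO22 under the main setting (-0.39 ± 0.11 and -0.38 ± 0.11). CUL1, the cullin scaffold of the ligase, differed by -0.05 ± 0.08 and 0.02 ± 0.08 and was not called. The count of 3 was 1 without control replicate 1 or BMP6 replicate 4. The count of 5 was 2 without LH replicate 1 or LH+BMP6 replicate 2 and 3 without LH+BMP6 replicate 4, and 1 gene was called higher without LH replicate 2. Of 9 skeletal muscle markers, the tissue in which FBXO32 is best known, 0 were called in BMP6 against control, and CKM was higher (0.89 ± 0.16, or 0.49 by the mean of its probe sets) and MYH7 lower (-0.57 ± 0.11, not called by the mean of its probe sets) in LH+BMP6 against LH.

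**Figure D5:**
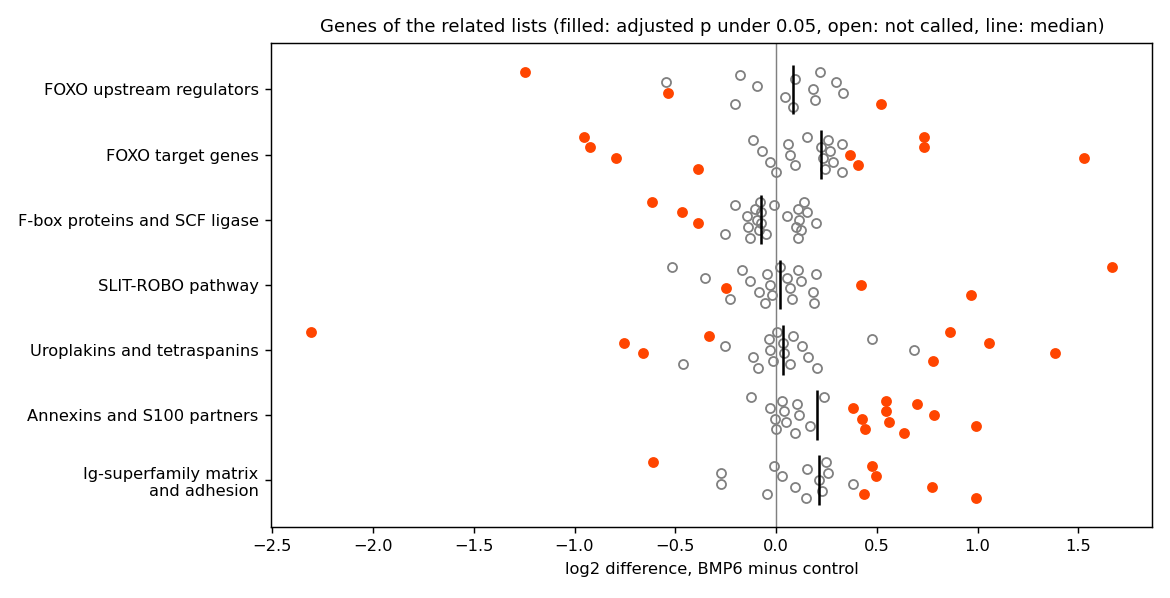
The log2 difference between BMP6 and control (horizontal axis) for the genes of 7 related lists (vertical axis), filled where limma called them and open where it did not, with a line at each list's median. The annexin and S100 genes have 10 filled points, all above 0, the F-box genes have 3, all below 0, and TSPAN33 among the tetraspanins is the lowest point at -2.31.

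Markers of other cell types of the follicle wall were also read beside the 6 genes. Of 7 granulosa markers, CDH2, already given with the SLIT-ROBO genes, was called higher in both comparisons and no other was called, with FSHR means of 3.42 to 3.57 and CYP19A1 means of 4.49 to 4.75. Of 8 endothelial markers, CLDN5 was called lower in both (-0.88 ± 0.27 and -1.03 ± 0.27), the first call being lost without control replicate 3, control replicate 4, BMP6 replicate 1 or BMP6 replicate 2. Of 3 red blood cell markers 0 were called. The theca markers had 0 of 7 higher and 6 lower in BMP6 against control, and 7 lower in LH+BMP6 against LH, with INSL3 at -5.70 ± 0.55 and -5.20 ± 0.55. The part of these markers in the differences of the 6 genes was not tested.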

How the data were processed

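Signals came from 16 Affymetrix bovine GeneChip arrays, 4 in each of 4 groups. The deposited values are log2 signals that the authors made with RMA in Affymetrix Expression Console, per the submitters' processing notes; the software's version was not given in the sources used here. They were used as deposited. Of 24128 probe sets, 112 control probe sets were left out. The platform annotation gave 1 symbol to 13292 of the 24016 tested, several to 86 and none to 10638; 13263 were found in RefSeq genes by Entrez identifier and 0 symbols changed. A gene stands for its probe set with the highest mean.

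Limma 3.58.1 (R 4.3.3, statmod 1.5.0) was fitted on all 16 arrays with a coefficient per group and eBayes with an intensity trend, with Benjamini-Hochberg adjustment over 24016 probe sets and calls at an adjusted p under 0.05. Intervals are at 95%. The number of arrays limits the precision. The fit was tested on simulated data. Quality and marker measures were compared by exact permutation of group labels, adjusted over 24 tests. Tables were made with pandas 2.3.3 and numpy 2.4.6 under Python 3.11.15, and plots with matplotlib 3.10.9.

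The 6 genes and the gene lists were chosen with earlier results of these data known. Named genes are the 6, the 12 largest mean BMP6 differences and the 3 most similar genes by each of 2 correlations. From the lists, called genes are named, mainly those that kept their call under all settings, and partner genes and markers, called or not. The planned limit of up to 4 called genes a list in each direction, by size of change, was not kept. Of the listed genes, 15 of 25 FOXO regulators, 25 of 36 FOXO targets, 25 of 44 F-box genes, 23 of 36 SLIT-ROBO genes, 25 of 30 uroplakins and tetraspanins, 22 of 27 annexins and S100 genes and 19 of 30 immunoglobulin-superfamily genes were measured. A planned motif search in promoters was not run, as no promoter sequence was used here. Alternatives were the replicate block, fixed or random; a robust eBayes; an eBayes with no trend; dim probe sets, those below the 40th percentile by mean signal, removed; fits on the compared groups alone; quantile normalization; median centring; array weights; each array or replicate number left out; the 3 arrays of low hybridisation controls left out or as a term; and the mean of all probe sets of a gene.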

Additional observations from a re-analysis of the deposited data

Results flagged for a closer look

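In 2 of the 32 sets of 4 arrays (8 probe sets in 4 groups), 1 array lay further from the others than the 95% critical value of Dixon's test allows, and chance gives about 1 in 20 such sets. Both arrays were LH replicate 1, an array of low hybridisation controls. ANXA8L1 read 4.87 there against 5.95 to 6.05 on the other LH arrays (gap over range 0.915), and SLIT3, by its brighter probe set, read 6.27 against 6.90 to 7.00 (0.853).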

How the results depend on the processing

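No LH comparison and no interaction called any of the 6 genes under any alternative setting run, and the lowest limma adjusted p that any of them reached was 0.338, for FOXO4 in LH against control with the replicate block. There the block left its difference at 0.46 and gave ANXA8L1 an adjusted p of 0.450. There were 32 settings for a comparison of 2 groups and 31 for the averaged LH difference and the interaction, and 1 fewer in each for IGSF10, which the filter on dim probe sets removed. The differences with BMP6 kept their direction throughout: across settings ANXA8L1 ran from 1.04 to 1.67 without LH and from 1.93 to 2.58 with it, and IGSF10 from 1.79 to 2.58 and from 2.17 to 2.51. Over the 7 related lists together, with 15 to 25 genes measured in each, 28 genes were called higher and 15 lower in BMP6 against control. In LH+BMP6 against LH these counts were 36 and 18. Of all named genes, 9.31% were called higher and 15.5% lower in the first comparison, and 11.7% and 15.5% in the second. The count of 15 lower genes became 9 with a term for the 3 arrays of low hybridisation controls. It was 9 to 16 with an array or replicate number left out. The 18 became 11 to 19 in that way. The higher counts ran from 19 to 37 and from 24 to 44 over all settings, and the cause was not tested. By list in BMP6 against control, the higher counts ran from 0 to 3 for FOXO regulators, 3 to 8 for FOXO targets, 2 to 4 for SLIT-ROBO genes, 3 to 7 for tetraspanins and uroplakins, 6 to 10 for annexins and S100 genes and 2 to 6 for immunoglobulin-superfamily genes, and the lower count of F-box genes from 1 to 4. In LH+BMP6 against LH the higher counts ran from 0 to 2, 3 to 9, 3 to 7, 4 to 6, 8 to 14 and 5 to 8 in that order, and the lower count of F-box genes from 2 to 6. Replicate numbers were counted as pairing 2 groups only if every pair of same-numbered arrays correlated above 0.1 in its deviations. No comparison met that rule, as in each at least 1 number was below 0.1. For LH+BMP6 and BMP6 the values of replicates 1 to 4 were 0.51, 0.69, 0.08 and 0.24. Failing the rule therefore does not show that same-numbered arrays were unrelated. The mean r of same-numbered arrays was 0.156 for LH and control and 0.38 for LH+BMP6 and BMP6. It was 0.038 for BMP6 and control and 0.196 for LH+BMP6 and LH. For arrays of unlike numbers the mean r was -0.050, -0.124, -0.012 and -0.066, with the comparisons in the same order. Deviations within a group sum to 0, so these values follow from the means of same-numbered arrays and add nothing to them. The block changed no call of the 6 genes. No detection limit was estimated, so dim levels such as those of IGSF10 without BMP6 were not checked against one.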
